A study of Mus musculus with 79 samples.

Results

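Matrix metalloproteinases and their tissue inhibitors were followed through the whole data set as 10 of the 23361 genes listed, taken by symbol: Mmp2, Mmp3, Mmp9, Mmp12, Mmp13, Mmp14, Mmp19, Timp1, Timp2 and Timp3. All 10 were found in each of the 3 count tables. The study asked how an 8 week delay before nerve repair alters the cells of the repair site in mice. A freshly cut common peroneal nerve was joined through a silicone conduit to a tibial stump that had been cut either at the same time (immediate repair, with a sham incision 8 weeks earlier) or 8 weeks before (delayed repair), and RNA was sequenced from the distal tibial stump at day 5 and, at days 5 and 14, from macrophages and from cells sorted as Schwann cells out of the regenerative bridge that forms inside the conduit. The 79 libraries came from 32 animals of both sexes, each bridge from 1 animal. The distal stump gave 9 delayed and 7 immediate libraries, macrophages 9 and 8 at day 5 and 7 and 8 at day 14, and the Schwann cell fraction 9 and 7 at day 5 and 7 and 8 at day 14. Every animal carried enhanced GFP under the human S100β promoter, which labels Schwann cells and can also label other cells that use this promoter. Macrophages were sorted by F4/80, CD14, CD16/32 and CD11b, Schwann cells by GFP and the absence of these and other surface markers, 1000 cells per library. By the methods, both sorts left out cells with Ly6G (neutrophils), Thy1.2 (fibroblasts) or markers of eosinophils, lymphocytes, endothelium and red blood cells. No age is given in the sources used here, and no uninjured nerve was among the libraries.

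Matrix metalloproteinases (MMPs) are zinc-dependent enzymes that cells secrete, or hold on their surface, as inactive proenzymes and that cut collagens, laminins, proteoglycans and many signalling proteins once activated. Tissue inhibitors of metalloproteinases (TIMPs) bind the active site and block it. In injured peripheral nerve these enzymes open the blood-nerve barrier, let macrophages in, clear matrix and myelin debris and free the path of growing axons, and MMP9 and TIMP1 are long known as early products of the injury. MMP2 and MMP9 are the gelatinases, which cut denatured collagen and basement membrane collagen. MMP3 is stromelysin-1, which also activates other proenzymes, MMP12 is the elastase of macrophages, MMP13 is a collagenase of fibrillar collagen, MMP14 is a membrane-bound collagenase that activates proMMP2 with the help of TIMP2, and MMP19 is a secreted enzyme of basement membrane substrates. TIMP3 stays bound to the matrix and also blocks ADAM17 and several ADAMTS enzymes.

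Mmp13, Mmp12 and Mmp3 lie on the plus strand of chromosome 9 within 183.5 kb of each other (GENCODE on GRCm38: Mmp13 chr9:7272514-7283331, Mmp12 chr9:7344381-7369499 and Mmp3 chr9:7445822-7455975). These 3 neighbours had the 3 largest positive fold changes among the 10 genes in the delayed stump, given later, although only Mmp13 passed the test. Their promoters are shown because each holds the letters TGANTCA, the core bound by AP-1 factors, at a similar distance from a start site. The shared match thus follows from the choice of genes and of the Mmp12 start, and its part in the fold changes was not tested. The 150 bases before the RefSeq start (build GRCm38.p6, plus strand) are chr9:7272364-7272513 for Mmp13, chr9:7347224-7347373 for the second of 2 starts of Mmp12, which lies inside the GENCODE span of the gene, and chr9:7445672-7445821 for Mmp3, with the matching letters in capitals.
Mmp13: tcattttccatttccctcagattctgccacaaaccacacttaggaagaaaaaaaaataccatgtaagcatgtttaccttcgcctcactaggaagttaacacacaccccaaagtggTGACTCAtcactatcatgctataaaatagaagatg
Mmp12: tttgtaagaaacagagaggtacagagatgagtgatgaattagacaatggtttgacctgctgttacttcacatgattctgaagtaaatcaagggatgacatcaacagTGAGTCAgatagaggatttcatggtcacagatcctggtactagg
Mmp3: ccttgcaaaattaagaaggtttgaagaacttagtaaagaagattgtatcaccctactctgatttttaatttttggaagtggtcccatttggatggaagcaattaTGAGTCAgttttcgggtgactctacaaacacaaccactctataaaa
The match began 35 bases before the start in Mmp13, 44 in Mmp12 and 46 in Mmp3. In windows of 250 bases before to 50 after the start, both strands searched, 7.81% of 32851 windows in the RefSeq table held these letters. Of the 8 windows of the 10 genes, covering 7 genes, 3 held them. Those of Mmp14, Timp1, Timp2, Timp3 and the first start of Mmp12 did not, and Mmp2, Mmp9 and Mmp19 were not matched in the table.

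The remaining members lie apart, at chr8:92827291-92853420 (Mmp2), chr2:164940780-164955850 (Mmp9), chr14:54431612-54445364 (Mmp14), chr10:128790910-128800824 (Mmp19), chrX:20870166-20874735 (Timp1), chr11:118301069-118355740 on the minus strand (Timp2) and chr10:86300372-86349506 (Timp3). All 10 are protein coding. Timp1 lies inside Syn1 and Timp3 inside Syn3, genes of the opposite strand, and exons of Timp3, Mmp12 and Mmp19 overlap exons of Syn3, Mmp1b and Tmem198b, all on the opposite strand. The kit used for sorted cells does not mark strand, so reads from shared bases cannot be told apart there. The stump kit does, and the methods give a strand setting for its mapping and quantification. Mmp1b was at most 0.379 CPM (counts scaled to a common library size with TMM factors, the unit of all levels here) in macrophages and at 0 in the Schwann cell fraction. Tmem198b ran from 57.2 to 348 CPM in macrophages, and Syn3 from 2.37 to 64.4 CPM in the Schwann cell fraction.

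Library totals ran from 3898778 to 9212709 counts in the stump and from 11614940 to 30796823 in sorted cells, with 3 counts worth at most 0.77 CPM in any stump library and at most 0.258 CPM in any library of sorted cells. The macrophage libraries held the sorting markers, Emr1 (F4/80) from 825 to 1764 CPM and Cd14 from 4494 to 13884 CPM. The Schwann cell fraction did not match its name as plainly: S100b had a median of 3.13 CPM at day 5 and 7.55 CPM at day 14 and Sox10 of 19.5 and 104 CPM. There Ccr7, a dendritic cell gene, and Cd74, which macrophages also held, had medians of 6474 and 14585 CPM at day 5. In macrophages of that day these medians were 21.7 and 2364 CPM. The sort is therefore called the Schwann cell fraction here, and its levels are those of whatever cells passed the gate. Of the immediate day 14 libraries of this fraction, replicates 3 and 5 held 13113 and 4493 CPM of 5 neutrophil genes against at most 50.2 CPM in the other 6.

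**Figure D1:**
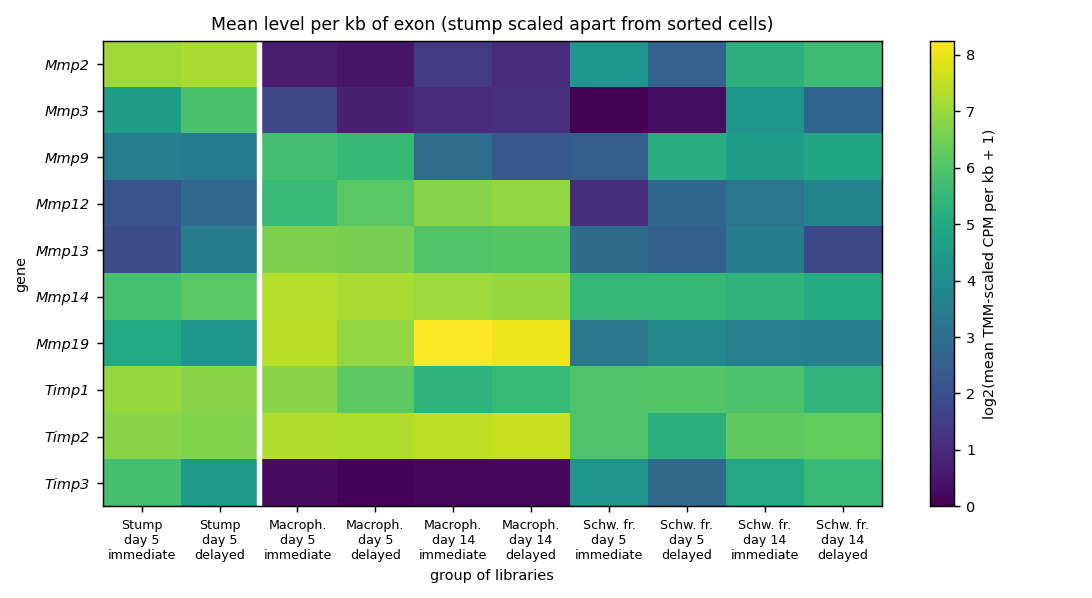
Mean TMM-scaled CPM per kb of exon, as log2(value + 1), for the 10 genes (rows) in the 10 groups of libraries (columns). Mmp19, Mmp14 and Timp2 are bright in all 4 macrophage groups, where Mmp2, Mmp3 and Timp3 are dark, and stump values (left of the white line) are scaled apart from those of sorted cells.

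Levels of different genes can be compared only per length. Per kb of exon, Mmp2 was the highest of the 10 genes in the stump, at 135 ± 29.9 CPM per kb after immediate repair (SD, n = 7) and 145 ± 60.5 after delayed repair (n = 9), followed by Timp1 at 123 ± 49.9 and 109 ± 48.5 and Timp2 at 109 ± 17.3 and 103 ± 20.7. These first 3 lay within 1 SD of their neighbours in both stump groups. Macrophages had another order. At day 5, Mmp19, Mmp14 and Timp2 led after immediate repair, at 166 ± 87.2, 159 ± 61.8 and 156 ± 37.9 CPM per kb (n = 8), again within 1 SD of each other. By day 14 Mmp19 stood first in both repair groups, at 303 ± 101 (n = 8) and 260.5 ± 84.8 (n = 7). Timp3 was last in every macrophage group, at 0.214 or less. In the Schwann cell fraction at day 14, Timp2 led with 74.5 ± 32.1 after immediate (n = 8) and 77.5 ± 40.6 after delayed repair (n = 7), and after delayed repair Mmp2, Timp3 and Timp1 lay within 1 SD below it. The order rests on the length used: per kb of the longest transcript, Mmp14 led the macrophages of day 5, at 293 and 270 CPM per kb after immediate and delayed repair, and both day 5 groups of the Schwann cell fraction, Mmp14 came second in the delayed stump, above Timp1 and Timp2, and Timp3 led that fraction at day 14 after delayed repair.

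Of the gelatinases, Mmp9 in macrophages was high at day 5 and low at day 14. After immediate repair its lowest, median and highest levels were 131.5, 187 and 247.5 CPM at day 5 (n = 8) and 7.71, 19.2 and 65.0 CPM at day 14 (n = 8). After delayed repair the same 3 values were 67.5, 125 and 379 CPM at day 5 (n = 9) and 3.07, 10.6 and 39.0 CPM at day 14 (n = 7). In each repair group every library of day 14 lay below every library of day 5. Mmp9 fell by 2.98 on the log2 scale (SE 0.32, adjusted p = 1.075e-05 in edgeR) after immediate repair and by 3.54 (SE 0.49, adjusted p = 0.000258) after delayed repair, 7.88-fold and 11.6-fold, and each call held in all 16 fits that left out 1 library. Genes of neutrophils, cells known to store MMP9 in their granules, were also measured: the 5 of 6 listed neutrophil genes in the table summed to 104 to 304 CPM at day 5 and 74.2 to 274 CPM at day 14 over both repair groups, none at 0 in every library of a group. Their score, a mean of log2(CPM + 1), was lower at day 14, at 2.78 to 3.70 against 2.11 to 2.71 after immediate repair without overlap, and at 2.50 to 3.67 against 1.66 to 2.98 after delayed repair, and Mmp8, the collagenase of neutrophils, fell by 3.30 (SE 0.43) after immediate and by 2.57 (SE 0.47) after delayed repair. The part of these cells in the fall of Mmp9 was not tested.

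Mmp2 was low in macrophages and higher in the Schwann cell fraction. Over the 32 macrophage libraries it ranged from 0.169 to 23.8 CPM, and it did not pass the filter of 5 CPM in 6 libraries in any comparison of macrophages alone. The 2 macrophage libraries with the most Mmp2, immediate replicate 7 of day 14 at 23.8 CPM and immediate replicate 4 of day 5 at 8.45 CPM, also held the most fibroblast transcripts of their groups, 1316 and 762.5 CPM over 8 genes. At day 14 all 15 libraries of the Schwann cell fraction, from 24.5 to 406 CPM, lay above all 15 macrophage libraries, with a log2 fold change of 5.00 (SE 0.49, adjusted p = 2.11e-10 in edgeR). At day 5 the fraction ran from 0 to 281 CPM, 11 of its 16 libraries lay above every macrophage library, and the log2 fold change was 4.43 (SE 0.82, adjusted p = 1.61e-05). Since macrophages and the Schwann cell fraction came from the same animals, the comparison was also fitted with the animal as a block, which kept both calls. In edgeR the value was then 3.45 (SE 1.17, adjusted p = 0.0156) at day 5 and 5.10 (SE 0.39, adjusted p = 2.04e-09) at day 14. Mmp2 passed the filter of these comparisons only through the fraction.

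Mmp9 in the Schwann cell fraction varied widely from library to library. At day 5 after delayed repair it ran from 0 to 301 CPM with a median of 149 CPM (n = 9), after immediate repair from 0 to 96.6 CPM with a median of 4.38 CPM (n = 7). At day 14 it ran from 0 to 453 CPM after delayed and from 1.88 to 325 CPM after immediate repair, with medians of 5.77 and 10.3 CPM. Delayed replicate 7 and immediate replicate 7 of day 14 were the highest of their groups. Against macrophages, Mmp9 had a log2 fold change of -1.74 (SE 0.82, edgeR adjusted p = 0.0638) at day 5 and of 2.32 (SE 0.81, adjusted p = 0.0136) at day 14. Neither value kept its side of the threshold once the animal was a block: at day 5 the value became -3.60 (adjusted p = 0.012) and at day 14 -0.24 (adjusted p = 0.828). Without animal replicate 7 of either repair group, the call of day 14 was also lost (adjusted p 0.0535 and 0.0554).

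**Figure D2:**
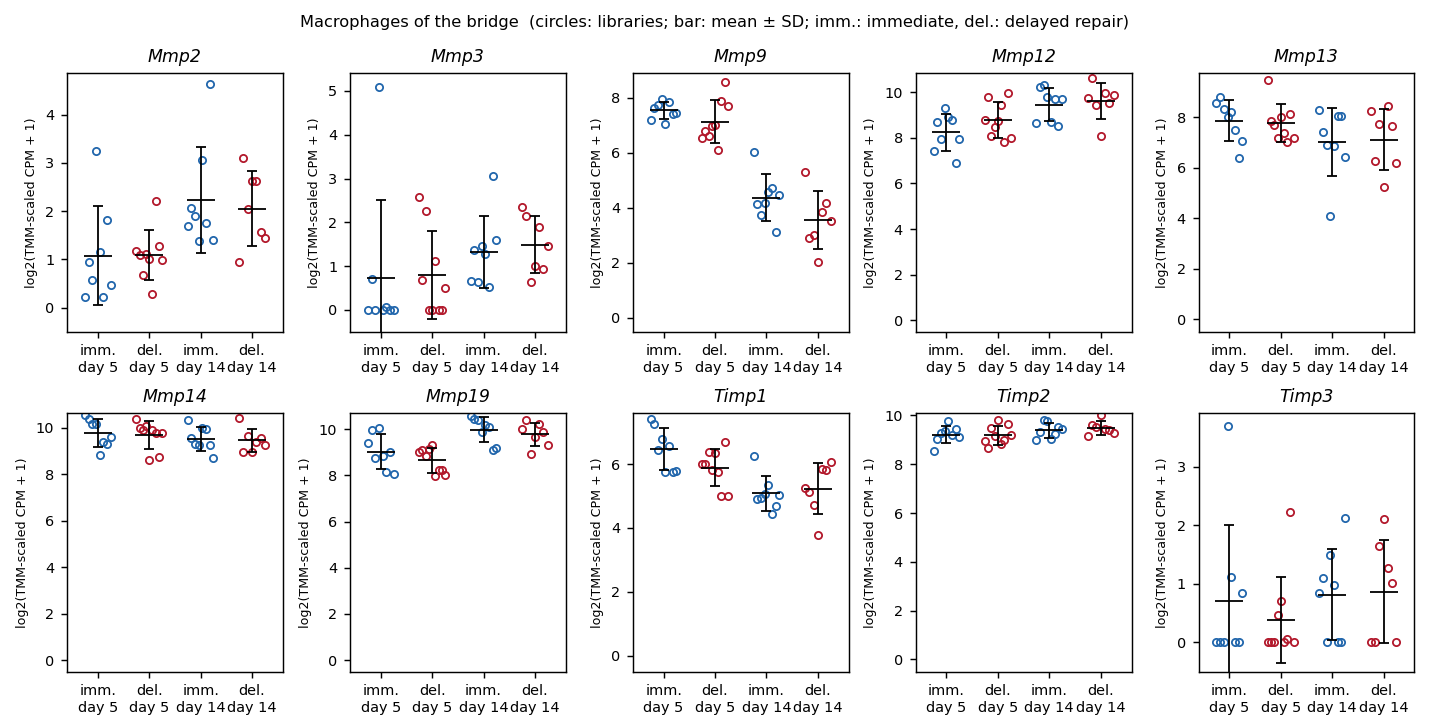
Levels in macrophages as log2(TMM-scaled CPM + 1), 1 circle per library, with mean and SD, in 4 groups by day and repair. Mmp9 drops from day 5 to day 14 with no overlap in either repair group, Mmp19 rises in both, Mmp12 after immediate repair, and Mmp2, Mmp3 and Timp3 are the lowest, at no more than 33.2 CPM in any library.

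Mmp19 rose in macrophages in both repair groups and Mmp12 after immediate repair. Mmp19 had lowest, median and highest levels of 264, 484.5 and 1067 CPM at day 5 and 554, 1121 and 1512 CPM at day 14 after immediate repair, and of 252, 453 and 629 CPM at day 5 and 486, 948.5 and 1331 CPM at day 14 after delayed repair. After delayed repair 6 of 7 libraries of day 14 lay above all 9 of day 5. Mmp19 rose by 1.14 (SE 0.23, adjusted p = 0.00446 in edgeR) after delayed repair, 2.203-fold, a call that held without any 1 library. After immediate repair it rose by 0.92 (SE 0.28, adjusted p = 0.0406), 1.89-fold, but 12 of the 16 fits without 1 library lost the call, with adjusted p from 0.0511 to 0.0793 and log2 fold changes from 0.81 to 0.94.

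Mmp12 after immediate repair ran from 118 to 626.5 CPM at day 5, with a median of 332 CPM, and from 362 to 1272 CPM at day 14, with a median of 835 CPM. It rose by 1.22 on the log2 scale (SE 0.33, adjusted p = 0.0222 in edgeR), 2.33-fold, and without immediate replicate 3 of day 14 by 1.08 (adjusted p = 0.05002). After delayed repair it ran from 222 to 1013 CPM at day 5 and from 267 to 1601 CPM at day 14, with medians of 427 and 860 CPM, and its log2 fold change of 0.79 (SE 0.34) had an adjusted p of 0.177. The groups overlapped in each repair group. The test of repair by day gave -0.42 (SE 0.50) for Mmp12, so the rise is not shown to differ between repair groups.

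Timp1 was the inhibitor that fell. In macrophages after immediate repair it ran from 52.9 to 169 CPM at day 5, with a median of 89.7 CPM, and from 20.8 to 75.5 CPM at day 14, with a median of 30.7 CPM, and 7 of 8 libraries of day 14 lay below all 8 of day 5. It fell by 1.40 (SE 0.28, adjusted p = 0.00293 in edgeR), 2.63-fold, a call kept in all 16 fits without 1 library. After delayed repair Timp1 already had a median of 62.5 CPM at day 5 (31.0 to 103 CPM) and one of 36.7 CPM at day 14 (12.8 to 66.6 CPM), and its log2 fold change was -0.59 (SE 0.30, adjusted p = 0.265). The difference between these 2 changes was 0.82 (SE 0.43), with an adjusted p of 0.9999. By sex, the mean after delayed repair went from 65.7 to 27.2 CPM in males and from 59.8 to 59.7 CPM in females. After immediate repair it went from 128 to 41.5 CPM in males and from 63.5 to 29.3 CPM in females. A difference between the sexes was not tested in macrophages. Mmp13, Mmp14 and Timp2 had log2 fold changes between day 5 and day 14 from -0.58 to 0.30 in the 2 repair groups, none past the threshold.

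Over macrophages, 4 of the 7 members tested were called between days after immediate repair, 2 higher and 2 lower, where 11.3% of 8507 genes were called, and 2 of 7 after delayed repair, 1 in each direction, where 6.41% of 8529 were. The median log2 fold change of the tested members was -0.24 and -0.22, against 0.012 and -0.0019 over all genes tested. The 3 members not tested were low: at day 14 the medians were 2.73 CPM for Mmp2, with 5 of 15 libraries at 5 CPM or more, 1.60 CPM for Mmp3 and 0.983 CPM for Timp3. In the same libraries 8 dendritic cell genes summed to 1369 to 5167 CPM at day 5. At day 14 they summed to 7124 to 18671 CPM, without overlap. None of the 8 was at 0 in every library of a group. Over both repair groups Cd74 had medians of 2364 and 8535 CPM on these days, but Ccr7 fell, with medians of 21.7 and 6.97 CPM. The score of the list, a mean of log2(CPM + 1), was 4.35 ± 0.56 (SD) and 5.06 ± 0.38 after immediate repair. After delayed repair it was 4.43 ± 0.61 and 5.05 ± 0.39. The part of dendritic cells in the changes named above was not tested. The test of whether the day effect differed between repair groups called 0 of the 7 members in edgeR, none with an unadjusted p under 0.05, where edgeR called 0.0223% of 8949 genes. With DESeq2 it called 0 members and 9 genes.

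Among the other proteolysis genes of macrophages, of which 4 lists were followed, all calls between days were falls. Mmp8, the neutrophil collagenase, fell by 3.30 (SE 0.43, adjusted p = 9.3e-05 in edgeR) after immediate and by 2.57 (SE 0.47, adjusted p = 0.00241) after delayed repair, and Mmp27 by 1.26 after immediate repair, which are 2 of 2 and 1 of 2 tested genes of the list of other MMPs. Of 6 tested ADAM and ADAMTS proteases, Adam8 and Adam9 fell in both repair groups, by 0.42 to 0.56. In the plasminogen system, whose product plasmin activates several proMMPs, Plaur, the urokinase receptor, fell by 1.06 after immediate repair (1 of 8 tested), and S100a10 by 0.50 after delayed repair (1 of 7). Of 7 tested activators and partners, Bsg, which encodes the MMP inducer basigin, and Thbs1, thrombospondin-1, fell in both, by 0.48 and 0.98 after immediate and by 0.56 and 0.85 after delayed repair. Median log2 fold changes of the 4 lists ran from -2.28 to -0.08. Over all genes, 11.3% of 8507 were called after immediate and 6.41% of 8529 after delayed repair.

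Mmp12, Mmp13, Mmp14, Mmp19 and Timp2 were higher in macrophages at both days. At day 14, Mmp19 had a median of 1029 CPM in the 15 macrophage libraries and of 45.8 CPM in the 15 of the Schwann cell fraction, where no library reached the lowest macrophage level, a log2 fold change of -4.66 (SE 0.28, adjusted p = 5.37e-15 in edgeR). Mmp12 at day 14 did not overlap either, with 267 to 1601 CPM in macrophages and 0 to 187 CPM in the fraction, and a log2 fold change of -3.47 (SE 0.53). At day 5 the differences were -3.59 (SE 0.38) for Mmp19 and -4.42 (SE 0.94) for Mmp12. Mmp13 differed by -4.10 (SE 0.78) at day 5 and -3.57 (SE 0.96) at day 14, Mmp14 by -1.76 (SE 0.17) and -1.79 (SE 0.19), and Timp2 by -1.71 (SE 0.28) and -1.24 (SE 0.20). All 10 of these differences passed the threshold with the animal as a block too, but some changed in size. Mmp12 was then at -7.31 (SE 1.11) at day 5 and -4.05 (SE 0.69) at day 14, and Mmp13 at -5.94 (SE 1.03) and -6.33 (SE 1.22). With this block Mmp14, Mmp19 and Timp2 lay from -4.79 to -1.36. At day 5 macrophage genes summed to 16946 to 37217 CPM in macrophages and to 298 to 10047 CPM in the fraction over 9 genes, none at 0 in every library of a group, and the share of Mmp12, Mmp13 and Mmp19 in the fraction that came from macrophages was not tested.

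Timp3 stood at the other end. In macrophages it was listed at 0 in 16 of 32 libraries and was at most 11.99 CPM. The Schwann cell fraction held 4.35 to 468 CPM at day 5 and 127 to 694 CPM at day 14, where no library overlapped with macrophages. The log2 fold change was 6.53 (SE 0.86, adjusted p = 4.5e-08 in edgeR) at day 5 and 8.17 (SE 0.63, adjusted p = 8.78e-13) at day 14, both kept with the animal as a block (7.92 and 8.49). Timp3 reached 5 CPM in 1 of 17 macrophage libraries at day 5 and in 0 of 15 at day 14. It thus entered these tests only through the fraction. Mmp3 was called higher in the fraction at day 14, at 3.27 (SE 1.02, adjusted p = 0.0062), but 7 of the 15 libraries of the fraction lay above every macrophage library and 7 below every one, and with the animal as a block the value was 0.84 (adjusted p = 0.659). Timp1 had log2 fold changes of -0.39 (SE 0.30) at day 5 and 0.25 (SE 0.29) at day 14, neither called. In all, 7 of 9 tested members were called at day 5, 2 higher in the fraction and 5 lower, against 65.3% of 10087 genes, and 9 of 10 at day 14, 4 higher and 5 lower, against 64.7% of 10596 genes. These counts are without the animal as a block. With it, 8 members were called at day 5 and 7 at day 14, where Mmp3 and Mmp9 were no longer called higher, beside 6501 and 6708 genes. Mmp2 and Timp3 at both days and Mmp3 at day 14 passed the filter only through the fraction, so their direction was set beforehand. In macrophages Mmp2 reached 5 CPM in 1 of 17 libraries at day 5 and in 5 of 15 at day 14, and Mmp3 in 1 of 15 at day 14.

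Other genes of the proteolysis lists also divided between the sorted cells. Of the list of other MMPs, Mmp25, a membrane-anchored enzyme of leukocytes, was higher in the Schwann cell fraction by 8.06 (SE 0.50) at day 5 and 7.54 (SE 0.49) at day 14, Mmp17 by 7.20 (SE 0.92) and 7.53 (SE 0.67) and Mmp23 by 5.10 (SE 0.74) and 4.47 (SE 0.48), and at day 14 Mmp15 by 9.45 (SE 0.60), while Mmp8 and Mmp27 were lower at both days. Plat, tissue plasminogen activator, was higher by 4.97 (SE 0.28) and 4.98 (SE 0.35), and Plau and its receptor gene Plaur were lower, Plau at -3.05 and -4.28 and Plaur at -3.58 and -2.82. Lrp1, the endocytic receptor that clears MMPs and TIMPs, was lower, at -2.55 (SE 0.20) and -2.88 (SE 0.18). At day 14 the fraction was higher in Reck, a membrane-anchored MMP inhibitor, by 5.71 (SE 0.82). By list, 3 of 5 tested other MMPs were higher and 2 lower at day 5 and 4 and 2 of 6 at day 14. Of the ADAM and ADAMTS proteases 6 of 12 were higher and 5 lower at day 5 and 7 and 5 of 13 at day 14, of the plasminogen system 3 and 4 of 8 and 3 and 3 of 8, and of the activators and partners 0 and 7 of 7 and 2 and 6 of 9. Over all genes, 65.3% of 10087 were called at day 5 and 64.7% of 10596 at day 14.

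**Figure D3:**
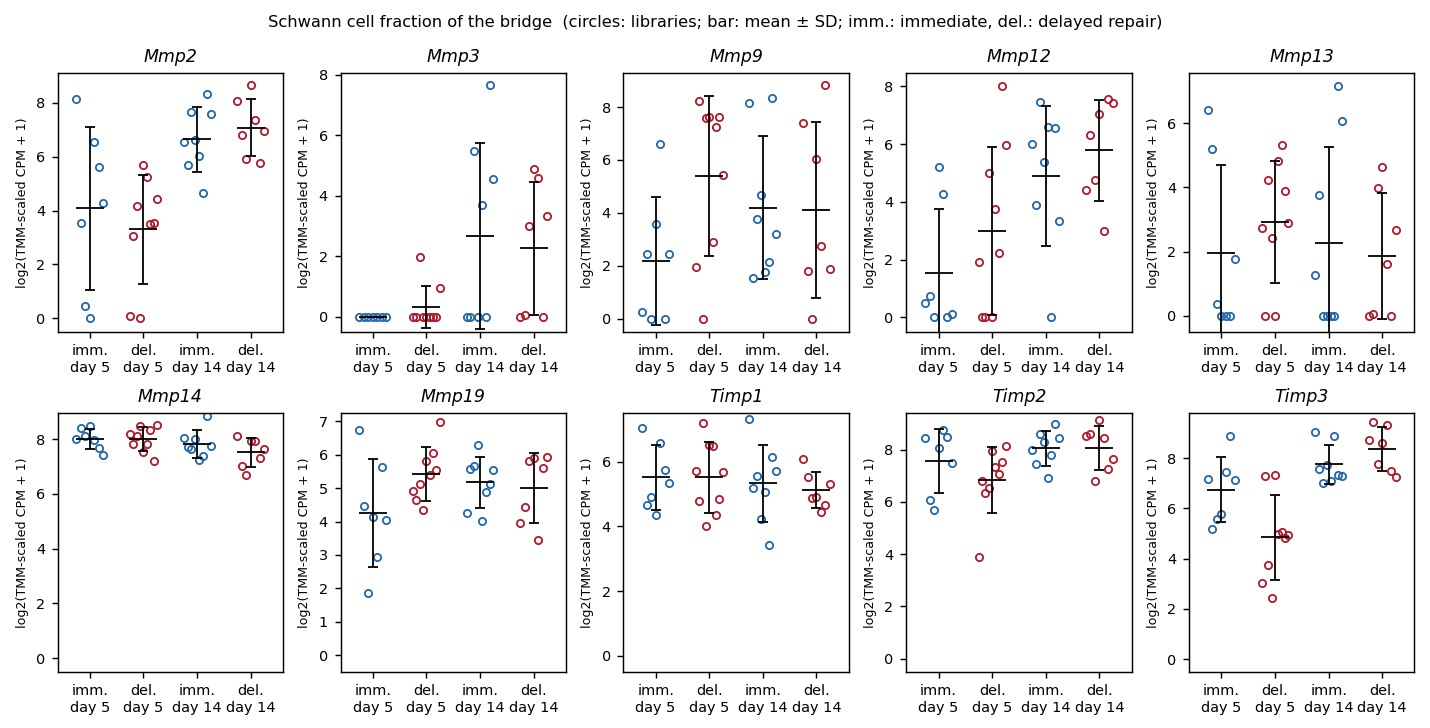
Levels in the Schwann cell fraction as log2(TMM-scaled CPM + 1), 1 circle per library, with mean and SD, in 4 groups by day and repair. Mmp2 and Timp3 are higher at day 14 than at day 5 after delayed repair, and Mmp9, Mmp12 and Mmp13 vary widely between libraries of a group, from 0 to 301 CPM for Mmp9 at day 5 after delayed repair.

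Within the Schwann cell fraction, Mmp2 and Timp3 rose between days after delayed repair. Mmp2 had lowest, median and highest levels of 0, 10.6 and 51.0 CPM at day 5 (n = 9) and 53.2, 122 and 406 CPM at day 14 (n = 7), and the days did not overlap. It rose by 3.36 on the log2 scale (SE 0.86, adjusted p = 0.0279 in edgeR), 10.3-fold, and without delayed replicate 4 of day 14 by 2.997 (adjusted p = 0.0566). Timp3 had levels of 4.35, 29.5 and 159 CPM at day 5 and 151, 391.5 and 693.5 CPM at day 14, and 6 of 7 libraries of day 14 lay above all 9 of day 5. It rose by 2.98 (SE 0.68, adjusted p = 0.0175), 7.89-fold, and stayed called without any 1 library. Timp2, at 1.13 (SE 0.45, adjusted p = 0.119), did not pass, although 4 of 7 libraries of day 14 lay above all of day 5. After immediate repair Mmp2 had medians of 18.5 and 94.9 CPM at days 5 and 14 with a log2 fold change of 1.08 (SE 1.03), and Timp3 medians of 139 and 176 CPM with 0.77 (SE 0.52), neither called. The difference between the repair groups was 2.28 (SE 1.36) for Mmp2 and 2.199 (SE 0.87, unadjusted p = 0.0174 and adjusted p = 0.954 in edgeR) for Timp3, so the rises are not shown to be particular to delayed repair.

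Markers of fibroblasts and Schwann cells moved with them, and other lists moved too. After delayed repair 8 fibroblast genes summed to 87.1 to 3622 CPM at day 5 and to 1603 to 16069 CPM at day 14, and 9 Schwann cell genes to 157 to 445 CPM and, without overlap, to up to 2637 CPM at day 14 with a median of 1458 CPM. After immediate repair the sums were 328 to 8387 and 945 to 12719 CPM for fibroblast genes and 215 to 1240 and 416.5 to 1350 CPM for Schwann cell genes. No gene of either list was at 0 in every library of a group. Pdgfra, the lowest fibroblast gene after delayed repair, had medians of 0 and 0.0741 CPM at days 5 and 14. Sums of 6 mural cell genes had medians of 10.8 and 30.7 CPM on these days, and those of 9 macrophage genes 2903 and 1392 CPM. The library of day 5 with the most Mmp2, immediate replicate 1 at 281 CPM, also held the most fibroblast transcripts. The part of these cells in the rises of Mmp2 and Timp3 was not tested.

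Mmp3 was listed at 0 in all 7 immediate libraries of the fraction at day 5, where 3 counts are worth at most 0.15 CPM, and in 7 of 9 delayed ones. At day 14 it reached 200 CPM in immediate replicate 7 and 28.3 CPM in delayed replicate 4 and was listed at 0 in 4 of 8 and 2 of 7. Of 8 members tested between days after immediate repair 0 were called, where 3.81% of 10016 genes were, and 1 had an unadjusted p under 0.05 in edgeR, Mmp12. Of 9 tested after delayed repair 2 were called, where 8.09% of 9961 genes were. These shares rest on 382 and 806 genes, counts that single libraries moved to between 222 (without immediate replicate 2 of day 5) and 638 (without immediate replicate 5 of day 5) and to between 359 and 1175 (without delayed replicates 2 and 3 of day 14). With the 2 libraries high in neutrophil genes left out, 0 of the members were called after immediate repair as well. From the other lists, Serpine2, the protease nexin that blocks thrombin and plasminogen activators, rose in both repair groups, by 2.39 (SE 0.47, adjusted p = 0.012) and 2.87 (SE 0.52, adjusted p = 0.00862). After delayed repair Mmp15 rose by 3.30 (SE 0.98, adjusted p = 0.0473) and Adamts1 by 2.42 (SE 0.70, adjusted p = 0.0418), the only other calls in the 4 lists.

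In the distal stump at day 5, delayed repair went with more Mmp13 and less Timp3 and Mmp19. Fewer cells of a type and less RNA per cell cannot be told apart in such bulk tissue. Timp3 had lowest, median and highest levels of 256, 482 and 611 CPM after immediate repair (n = 7) and 106, 133 and 378 CPM after delayed repair (n = 9), and 8 of 9 delayed stumps lay below all 7 immediate ones. It fell by 1.34 on the log2 scale from immediate to delayed repair (SE 0.26, adjusted p = 0.00118 in edgeR), 2.54-fold. The exception, delayed replicate 5 at 378 CPM, also held 2399 CPM of 6 skeletal muscle genes. Mmp19 had levels of 79.1, 97.0 and 153 CPM after immediate and 49.0, 71.5 and 82.5 CPM after delayed repair, with 6 of 9 delayed stumps below all immediate ones. It fell by 0.72 (SE 0.16, adjusted p = 0.0026), 1.65-fold. Both calls held in each of the 16 fits without 1 library.

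**Figure D4:**
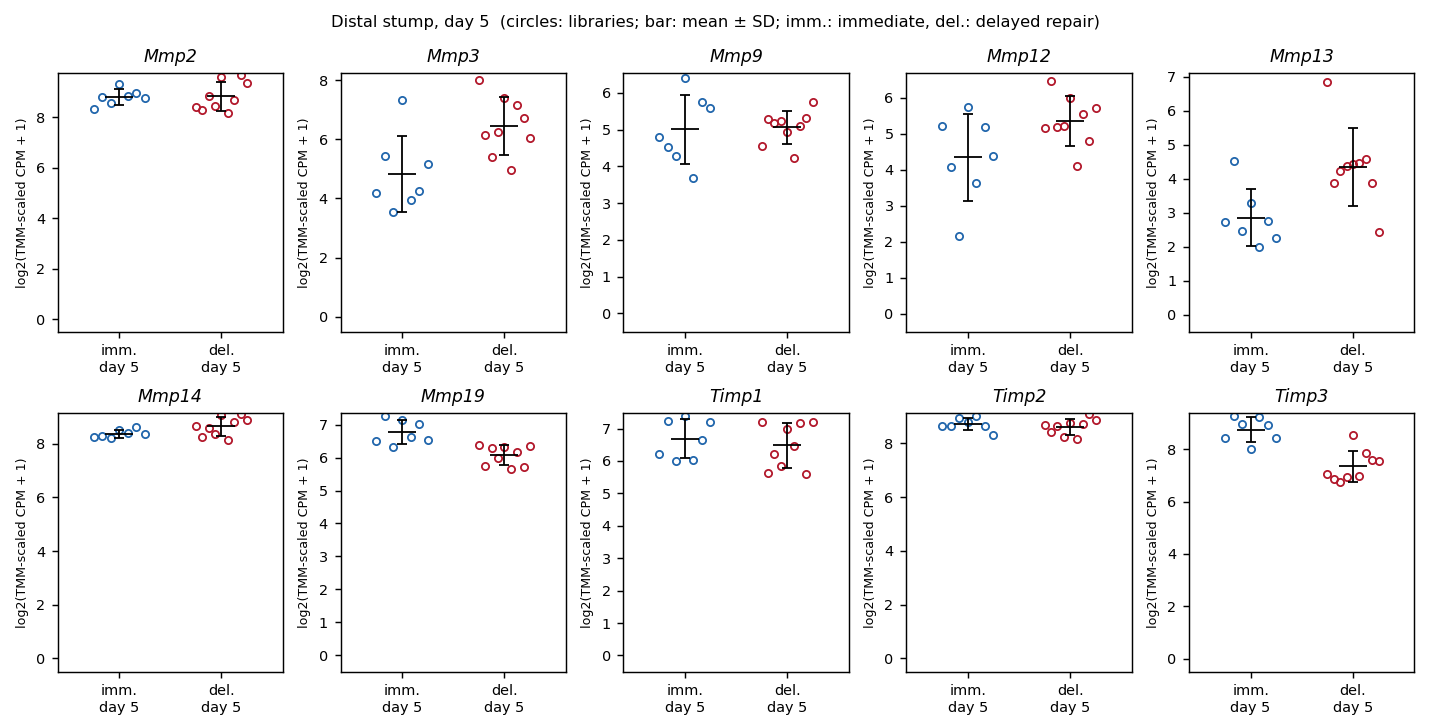
Levels in the distal stump at day 5 as log2(TMM-scaled CPM + 1), 1 circle per library, with mean and SD, after immediate (n = 7) and delayed (n = 9) repair. Timp3 and Mmp19 sit lower after delayed repair, and Mmp13 higher with 1 delayed library at 116 CPM above the rest.

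Mmp13 was low in the stump, at 2.997 to 22.3 CPM with a median of 5.602 CPM after immediate repair and at 4.46 to 116 CPM with a median of 19.6 CPM after delayed repair. Delayed replicate 1, at 116 CPM, stood far above the next delayed stump, at 23.0 CPM, and the highest immediate stump lay within the delayed range. The log2 fold change was 1.82 (SE 0.58, adjusted p = 0.0279 in edgeR), 3.54-fold. Without delayed replicate 1 it was 1.09 (adjusted p = 0.0545), and without immediate replicate 1, 3, 6, 7 or 8 it was from 1.68 to 1.76 (adjusted p from 0.0502 to 0.0619), so the call was lost in 6 of 16 such fits with the direction kept in all. Within sexes the means were 41.7 and 10.3 CPM in 4 delayed and 4 immediate males and 16.5 and 4.20 CPM in 5 and 3 females.

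Mmp3 had levels of 10.6, 18.1 and 160 CPM after immediate and 30.4, 74.6 and 256 CPM after delayed repair, and a log2 fold change of 1.30 (SE 0.56) with an adjusted p of 0.0957. Immediate replicate 4 was the stump at 160 CPM. Without it the log2 fold change was 2.18 (SE 0.46, adjusted p = 0.00229). This stump also held the highest Mmp9 and Mmp12 of the immediate group, 83.5 and 52.3 CPM, the most macrophage transcripts, 4743 CPM over 9 genes, and the fewest Schwann cell transcripts, 1442 CPM over 9 genes. Mmp12 over the group ran from 3.46 to 52.3 CPM after immediate and from 16.3 to 87.4 CPM after delayed repair, with medians of 20.0 and 36.0 CPM. Its log2 fold change of 0.81 (SE 0.41) did not pass (adjusted p = 0.154). Mmp14, at 293 to 393 and 280 to 546 CPM, had 0.30 (SE 0.14, adjusted p = 0.11), and without delayed replicate 6 an adjusted p of 0.0499. Mmp2, Mmp9, Timp1 and Timp2 had log2 fold changes from -0.17 to 0.10 with standard errors up to 0.33.

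In all, 3 of the 10 members were called in the stump, 1 higher and 2 lower, where 26.3% of 12229 genes were called, and the median log2 fold change was 0.007 against 0.019 over all genes. The share of members called was thus close to that of all genes. Schwann cell markers fell with Timp3 and Mmp19: 9 genes summed to 1442 to 3416 CPM after immediate and 128 to 848 CPM after delayed repair without overlap, none at 0 in every stump. The score of these markers was 4.50 ± 0.72 after delayed (SD, n = 9) and 7.49 ± 0.45 after immediate repair (n = 7), with an adjusted p of 0.000525 in a 2-sided exact permutation test over 12 marker lists. Endothelial markers were higher in all 9 delayed stumps than in any immediate one, summing to 1099 to 1576 against 688 to 936 CPM over 6 genes, none at 0, and macrophage genes summed to 2932 to 5004 against 1326 to 4743 CPM (adjusted p = 0.0671 in the exact permutation test). The skeletal muscle score differed by 1.70, with 7 of 9 delayed stumps above all immediate ones (adjusted p = 0.0673 in the same test). Scores of mural cell, dendritic cell and T cell markers were also higher after delayed repair, by 0.39, 0.65 and 0.89 on the log2 scale, with adjusted p of 0.00699, 0.0163 and 0.0218 in the exact permutation test. The part of these cell types in the changes of Mmp13, Mmp19 and Timp3 was not tested. The test of repair by sex called 0 of the 10 members and 0.0% of 12229 genes in edgeR, with 0 members and 272 genes at an unadjusted p under 0.05 and 0 genes called by DESeq2.

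Of the other proteolysis genes of the stump, Spock1, a proteoglycan that inhibits MMP activation, fell by 4.70 (SE 0.44, adjusted p = 1.7e-06 in edgeR) after delayed repair and A2m, the broad protease inhibitor alpha-2-macroglobulin, fell by 3.57 (SE 0.48, adjusted p = 5.9e-05), while Thbs1 rose by 0.57 (SE 0.13, adjusted p = 0.00335), which are 2 and 1 of 12 tested activators and partners. Among 7 tested other MMPs, the membrane-type enzymes Mmp17 and Mmp16 went opposite ways, by -1.78 (SE 0.33) and 1.12 (SE 0.25). In the plasminogen system 3 of 9 fell, Plat by 0.81 (SE 0.18), S100a10 by 0.64 (SE 0.20) and Anxa2 by 0.62 (SE 0.18), and 0 rose. Of 17 tested ADAM and ADAMTS proteases 5 rose, led by Adamts6 at 0.92 (SE 0.19) and Adamts12 at 0.53 (SE 0.10), and 4 fell, the aggrecanases Adamts5 at -0.58 (SE 0.14) and Adamts4 at -0.34 (SE 0.08) with Adamts1 and Adam10. Over all genes, 26.3% of 12229 were called in this comparison.

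**Figure D5:**
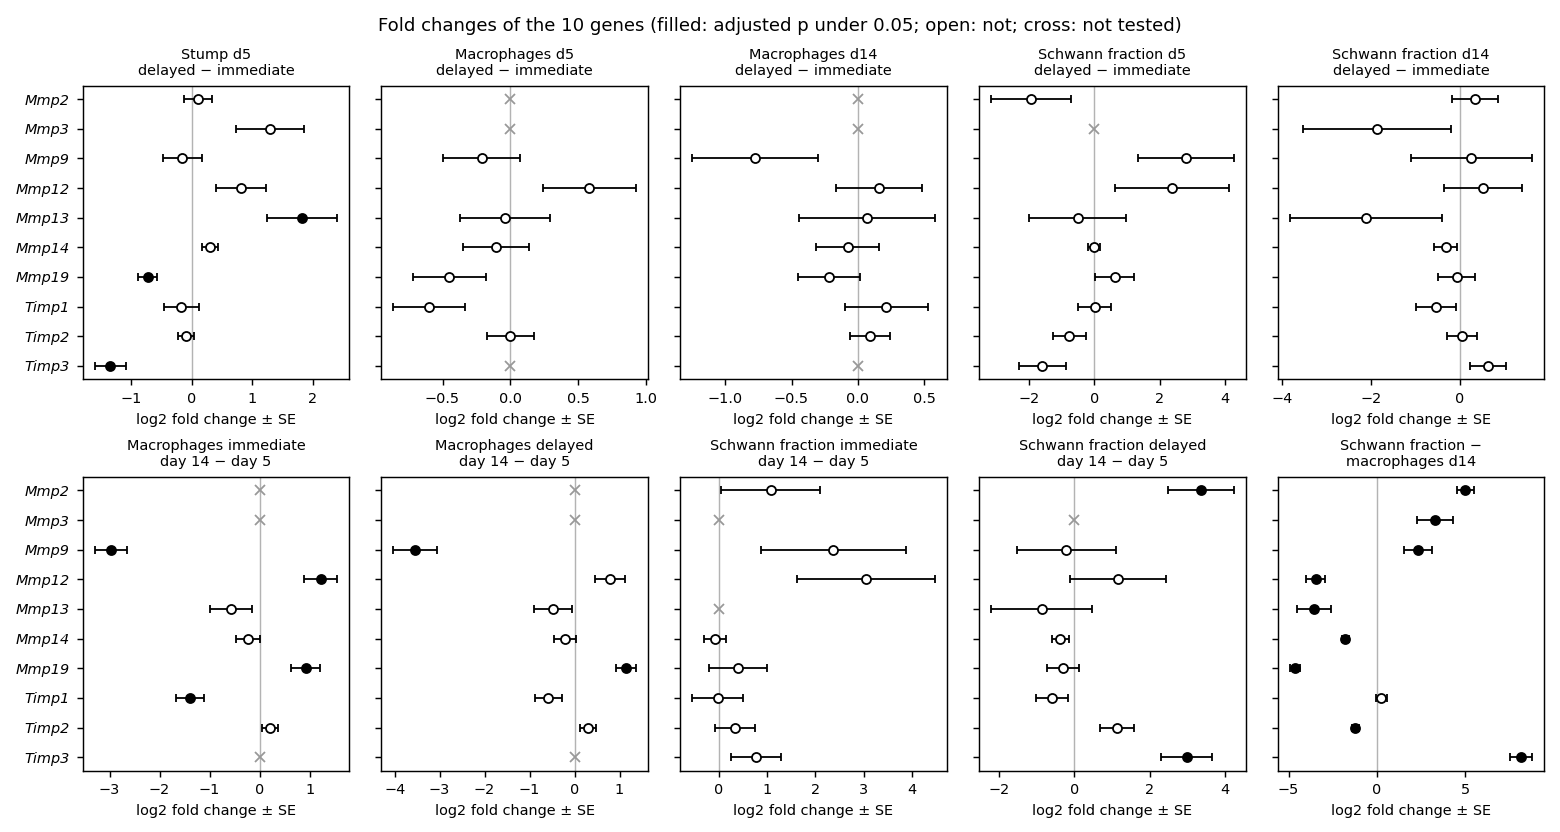
Log2 fold changes with standard errors for the 10 genes in 10 of the comparisons, each panel on its own axis, with filled points past an adjusted p of 0.05, open points not past it and crosses at 0 for genes not tested. Filled points stand in the stump, in macrophages between days, in the Schwann cell fraction between days after delayed repair and between the sorted cells, and none in sorted cells between repair groups.

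In the sorted cells no member was called between delayed and immediate repair, by edgeR or by DESeq2. In macrophages at day 5, 0 of 7 tested members were called, where 0.0357% of 8409 genes were, and 1 had an unadjusted p under 0.05 in edgeR: Timp1 had medians of 62.5 CPM after delayed and 89.7 CPM after immediate repair, a log2 fold change of -0.60 (SE 0.26, unadjusted p = 0.0353, adjusted p = 0.923). The means of Timp1 after delayed and immediate repair were 65.7 and 128 CPM in males and 59.8 and 63.5 CPM in females. Mmp12 lay at 0.58 (SE 0.34) and Mmp19 at -0.45 (SE 0.27), with adjusted p of 0.969 for each. Mmp9, Mmp13, Mmp14 and Timp2 lay from -0.21 to -0.0012. At day 14, 0 of 7 were called and 0 had an unadjusted p under 0.05, where 0.0% of 8589 genes were called in edgeR, 190 had an unadjusted p under 0.05 and 0 were called by DESeq2. Mmp9 then lay at -0.77 (SE 0.47), the largest of the 7 in size, the other 6 from -0.22 to 0.21, and the ranges of the 2 repair groups overlapped for each of the 7.

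In the Schwann cell fraction at day 5, 0 of 9 tested members were called, where 0.0% of 9604 genes were, with 505 at an unadjusted p under 0.05 and 14 called by DESeq2. Timp3 was the 1 member below that value, at -1.58 (SE 0.73, adjusted p = 0.913 in edgeR), with 7 of 9 delayed libraries below all 7 immediate ones. Mmp9 lay at 2.80 (SE 1.46), with 5 of 9 delayed libraries above all immediate ones, Mmp2 at -1.94 (SE 1.22) and Mmp12 at 2.38 (SE 1.75). Without immediate replicate 5, Mmp9 lay at 5.19, without immediate replicate 1, Mmp2 lay at -0.78, and without immediate replicate 7, Timp3 lay at -0.97. With these standard errors changes of several fold were not detectable. Mmp13, Mmp14, Mmp19, Timp1 and Timp2 lay from -0.77 to 0.62. Schwann cell marker scores were 3.30 ± 1.27 after delayed and 4.99 ± 1.19 after immediate repair, with an adjusted p of 0.22 in the exact permutation test. Macrophage marker scores of the same libraries were 6.99 ± 1.37 after delayed and 5.39 ± 1.40 after immediate repair (adjusted p = 0.225 in the exact permutation test), with 5 of 9 delayed libraries above all immediate ones. The part of these cells in the values of Mmp9 and Mmp12 was not tested. At day 14, 0 of 10 were called and 0 had an unadjusted p under 0.05, where 0.0% of 10226 genes were called in edgeR, 373 had an unadjusted p under 0.05 and 3 were called by DESeq2. Timp3 then lay at 0.64 (SE 0.40), on the other side of 0 from day 5, and the other members from -2.11 (SE 1.72) for Mmp13 to 0.53 (SE 0.88) for Mmp12. The test of repair by day called 0 of 10 members and 0.0% of 10923 genes, with 2 members, Timp3 and Mmp3, and 524 genes at an unadjusted p under 0.05. With DESeq2 this test called 1 member, Mmp3, whose value of -21.0 comes with zeros in every immediate library of day 5.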

How the data were processed

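The deposited values were estimated counts per gene that the authors made from reads aligned to mm10 with UCSC genes, 1 table each for the stump, macrophages and the Schwann cell fraction. Per the labels, the authors' tools included cutadapt 1.8, TopHat2 2.1.1, Cufflinks 2.2.1 and Cuffnorm, and the program that wrote the counts is not given in the sources used here. Sorted cells were amplified with SMART-Seq v4, a kit without strand, and stump RNA was depleted of rRNA and sequenced with a directional kit. From 0.9002 to 1.1416% of values were not whole, and all were rounded. Library totals and the CPM worth of 3 counts are in the text, and the latter covers counting error only.

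Levels are TMM-scaled CPM, with all sorted cells scaled together and the stump alone. The stump and the sorted cells were not compared by a test. Each comparison was fitted over all genes that reached 5 CPM in 6 or more of the libraries fitted with the edgeR 4.0.16 quasi-likelihood test (R 4.3.3), p adjusted by Benjamini-Hochberg over those genes and calls made at 0.05. Adjusted p-values in the text are from this test unless another is named. Standard errors were derived from each log2 fold change and its F statistic (change over root F). Marker scores are means of log2(CPM + 1) compared by 2-sided exact permutation tests, adjusted over 12 lists, and their smallest p was 8.741e-05 in the stump. Levels per kb use the union of GENCODE exons. The scripts were tested on simulated data.

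Each library comes from 1 animal, and p-values of comparisons within a sample type measure the spread between animals. Tests of the Schwann cell fraction against macrophages take both libraries of an animal as independent, except where the animal is a block. Within a repair group and day, the same replicate number marks the same animal in macrophages and the Schwann cell fraction, by the labels. Over 16 pairs at day 5 the deviations of such libraries correlated at -0.023 to 0.228 (median 0.098) and over 15 pairs at day 14 at 0.05 to 0.227 (median 0.091). Across repair groups and days the animals differ. Xist followed the sex labels, and 0 of 3081 pairs of libraries were identical.

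Alternatives were DESeq2 1.42.0, library size scaling, other filters, sex as a covariate, the replicate number or animal as a block, each library left out in turn, another pseudocount and another gene length. Between the fraction and macrophages, each animal was left out in turn in place of each library. Leaving out the 2 libraries high in neutrophil genes was chosen after seeing the data. The 10 genes and the gene lists were chosen with earlier results of these data known. All 10 genes were followed in each comparison, those not named singly being given by range or count, and of the other lists the text names at most the 5 called genes with the smallest p in each list and direction.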

Additional observations from a re-analysis of the deposited data

Results flagged for a closer look

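In 9 of the 99 sets of libraries of 1 group examined for a member, the highest or lowest library stood farther from the rest than Dixon's 95% value allows, where chance gives about 5% of sets. Macrophages of immediate replicate 4 at day 5 were highest in both Mmp3, at 33.2 CPM, and Timp3, at 11.99 CPM, and those of immediate replicate 7 at day 14 in Mmp3, at 7.32 CPM. These 2 libraries also held the most fibroblast transcripts of their groups, and the part of these in the values was not tested.

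Mmp13 was highest in delayed replicate 1 at day 5 both in the stump, at 116 CPM, and in macrophages, at 709.6 CPM, 2 libraries of the same animal. In macrophages of day 14, immediate replicate 4 was lowest in Mmp13, at 16.1 CPM. In the Schwann cell fraction of delayed repair at day 5, replicate 3 was highest in Mmp3, at 2.88 CPM, and replicate 1 lowest in Timp2, at 13.9 CPM. Timp3 was highest in delayed replicate 8 of the macrophages of day 5, at 3.66 CPM.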

How the results depend on the processing

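Of the values of single members under alternatives other than leaving out 1 library or animal, 640 kept their direction and their side of the threshold, 27 changed sign, 4 gained and 4 lost a call. The 3 calls of the stump held under each such alternative. Mmp19 in macrophages between days after immediate repair lost its call with edgeR's filterByExpr (0.89, adjusted p = 0.0598) and with no filter (0.89, adjusted p = 0.0745). With DESeq2, Timp2 gained one in the Schwann cell fraction between days after delayed repair (1.16, adjusted p = 0.049), Mmp9 between the sorted cells at day 5 (-1.73, adjusted p = 0.0313), and Mmp3 in the test of repair by day in the fraction, so that 1 member was called there (-21.0, adjusted p = 0.000157). The causes were not tested.

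Replicate numbers are shared across repair groups and days by different animals. Deviations of same-numbered libraries correlated above 0.1 in 1 of 7 pairs in the stump, 7 of 8 and 6 of 7 in macrophages at days 5 and 14, and 3 of 7 and 1 of 7 in the Schwann cell fraction, and not every library was closest to its own number. With the replicate number as a block, 1 member was called between days in the fraction after delayed repair, Mmp2 being at 4.11 (adjusted p = 0.102). The block reversed Mmp2 in the stump (-0.16), Mmp13 (3.45) and Timp1 (-0.26) in the fraction at day 5 between repair groups, Mmp9 (-0.40) and Timp2 (-0.16) there at day 14, and Timp1 (0.17) between days after immediate repair. The animal block reversed Mmp9 between sorted cells at day 14 (-0.24), as given in the text.

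Other reversed values were all of members not called. In macrophages at day 5 they were Mmp13 (0.043 with library size scaling, 0.042 with sex as a covariate) and Timp2 (0.095 with library size scaling). In the fraction at day 5 they were Timp1 (-0.0021 with DESeq2, -0.020 with library size scaling), Mmp14 (0.0058 with library size scaling, 0.0021 with no filter, 0.042 with sex) and Mmp13 (0.22 with sex). Between days after immediate repair library size scaling reversed Mmp14 (0.16) and Timp1 (0.13) in the fraction, and in the test of repair by day in macrophages Mmp13 (-0.0083), Mmp14 (-0.077) and Timp2 (-0.022). In the test of repair by sex in the stump, Mmp12 was 0.0024 with filterByExpr and 0.0075 with no filter. Without the 2 libraries high in neutrophil genes, Mmp9 (-0.10) and Timp2 (-0.0070) were reversed between repair groups at day 14 and Mmp14 (0.079) and Timp1 (0.10) between days after immediate repair. The dendritic cell score of the fraction at day 5 was -0.020 with log2(CPM + 5).

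Leaving out 1 library at a time, or 1 animal where the fraction was set against macrophages, 1364 member values kept direction and call. Of the rest, 67 changed sign, 22 lost and 4 gained a call. The number of members called between days ran from 2 to 4 in macrophages after immediate repair and from 1 to 2 in the fraction after delayed repair. Log2 fold changes that crossed 0 ran as follows between repair groups. In the stump Mmp2 ran from -0.023 to 0.19 and Mmp9 from -0.32 to 0.16. In macrophages at day 5, Mmp13 ran from -0.40 to 0.10, Mmp14 from -0.21 to 0.011 and Timp2 from -0.095 to 0.094, and at day 14 Mmp12 from -0.053 to 0.31, Mmp13 from -0.18 to 0.25, Mmp14 from -0.29 to 0.055 and Timp2 from -0.018 to 0.15. In the fraction at day 5, Mmp13 ran from -0.92 to 0.99, Mmp14 from -0.082 to 0.073 and Timp1 from -0.29 to 0.38, and at day 14 Mmp9 from -1.03 to 1.05, Mmp19 from -0.21 to 0.16 and Timp2 from -0.15 to 0.22. Between days in the fraction, Mmp14 ran from -0.28 to 0.028 and Timp1 from -0.51 to 0.34 after immediate repair, and Mmp9 from -1.48 to 0.10 and Mmp19 from -0.45 to 0.030 after delayed repair. Reversed values inside these ranges included 0.0035 and 0.023 for Mmp14 without immediate replicates 2 and 4 of day 5, 0.041, 0.062 and 0.14 for Timp1 without immediate replicates 2, 5 and 6 of day 14, and 0.020, 0.013 and 0.0066 for Mmp9 without delayed replicates 2, 3 and 6 of day 14.

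Counts over all genes moved by more than 1.5 times as follows. Between repair groups, macrophages at day 5 went from 3 to 17 with DESeq2, 8 with sex and 12 with the block, and the fraction from 0 to 14 with DESeq2 and 1 with sex at day 5 and from 0 to 3 with DESeq2 at day 14. Between days, macrophages went from 964 to 1484 with library size scaling after immediate and from 547 to 891 with DESeq2 after delayed repair. The fraction went from 382 to 924 with DESeq2 and 197 with the block after immediate repair, and from 806 to 1522 and 241 after delayed repair. The test of repair by day went from 2 to 9 with DESeq2 and 0 with library size scaling in macrophages and from 0 to 9 with DESeq2 in the fraction. Leaving out 1 library moved such counts from 3 to 1 in macrophages at day 5 between repair groups, from 0 to 1 in the fraction at day 5, from 382 to between 222 and 638 in the fraction between days after immediate repair and from 806 to between 359 and 1175 after delayed repair. Some values are lacking because a member fell under the filter in the smaller set, as Mmp12 in the fraction at day 5 and Mmp13 at day 14 without some libraries. Of 100 levels per kb, 20 moved by more than 1 SD with the longest transcript as length. Depth limits what can be said of members near the worth of 3 counts, such as Mmp3 and Timp3 in macrophages.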
